A study of Mus musculus with 2 samples.

Results

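Toll-like receptors and their first signalling partners were examined in neuron preparations of the mouse dorsal root ganglion (DRG), which are enriched for sensory neurons and also hold glial cells. The 10 genes were the receptors Tlr2, Tlr3, Tlr4, Tlr5, Tlr7 and Tlr9, the lipopolysaccharide co-receptors Ly96 and Cd14, and the adaptors Myd88 and Ticam1. They were taken by gene symbol from a table of 24411 genes, and all 10 were found. No level was used as a criterion, but the members were chosen with earlier results of these data known. The data were 2 RNA-seq libraries from C57BL/6J mice (C57BL/6 in the labels) that were 6 to 8 weeks old, male and wild-type by the study's methods. In both groups thoracic and lumbar DRGs were digested with collagenase/dispase, neurons were enriched on a BSA cushion, and B lymphocytes were depleted with beads. The alum-injected group received 50% alum, an aluminium adjuvant, intraperitoneally in 200 µl of saline on days 0 and 14. The alum + KLH-immunized group received the same injections with keyhole limpet hemocyanin (KLH), a mollusc protein that serves as foreign antigen, added at 100 µg. Ganglia were taken on day 28, and the RNA of each group was pooled from 10 mice into 1 library, so no value has a replicate and no difference was tested. The libraries are called the alum pool and the KLH pool from here on. The label of the control library calls it both naïve and alum alone, and it was treated as alum-injected, as in the methods.

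Toll-like receptors recognise microbial molecules and some molecules released from damaged cells. TLR2, TLR4 and TLR5 sit on the cell surface and respond to bacterial lipoproteins, lipopolysaccharide and flagellin, whereas TLR3, TLR7 and TLR9 sit in endosomes and respond to RNA or DNA. All of these receptors except TLR3 can signal through MyD88 to NF-κB, while TLR3 depends on TRIF, the product of Ticam1, which leads to type I interferon, and TLR4 can use both adaptors. In sensory neurons, TLRs have been studied as a route by which microbial products act directly on pain and itch fibres.

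Expression was given as TPM, the abundance of a transcript after scaling for its length and for the library total, which puts genes on a common scale. The scaling does not remove the trend of level with base composition described below, so comparisons of levels between genes carry that limit. Transcripts of a gene were summed. In the alum pool, 6 of the 10 genes were above 3 TPM, the detection threshold of the study, and the same 6 genes were above it in the KLH pool. Of all genes, 46.9% and 46.3% were above this threshold in the respective pools. The 6 genes were Tlr3, Ly96, Myd88, Tlr4, Tlr5 and Cd14, and the 4 below it were Tlr2, Ticam1, Tlr7 and Tlr9. The order of the 10 levels, from Tlr3 to Tlr9, was identical in both pools. TPM keeps no read counts, so the number of reads behind each value is unknown and a gene below the threshold may still have reads.

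**Figure D1:**
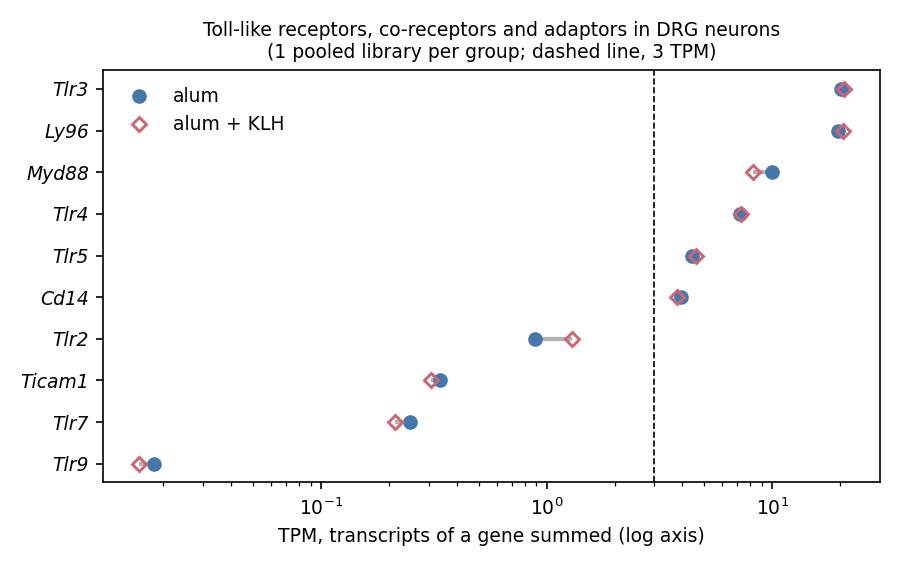
Level of each gene (rows) in TPM on a log axis, with filled circles for the alum pool, open diamonds for the KLH pool and a dashed line at 3 TPM. The symbols of each gene lie close together beside the span from Tlr9, at 0.0182 and 0.0156 TPM, to Tlr3, at 20.2 and 20.9 TPM.

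Among the receptors, Tlr3 was the most abundant. It encodes the sensor of double-stranded RNA and lies on chromosome 8 (45395665 to 45410619 of GRCm38, minus strand, 7 exons). Its level was 20.2 TPM in the alum pool and 20.9 TPM in the KLH pool, and 26.0% and 25.2% of all genes were higher. Tlr4, the lipopolysaccharide receptor, with 3 exons on the plus strand of chromosome 4 (66827584 to 66842800), followed at 7.20 and 7.29 TPM. The level of Tlr3 was 2.81 and 2.87 times that of Tlr4. Tlr5, the flagellin receptor, has 4 exons on the plus strand of chromosome 1 (182954788 to 182976044) and a level of 4.43 and 4.59 TPM. These 3 receptors stood in the same order in both pools, which are single libraries of different groups and not replicates.

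Tlr2, which recognises lipoproteins as a heterodimer with TLR1 or TLR6, was below the threshold at 0.891 and 1.30 TPM (chromosome 3, 83836272 to 83841767, minus strand, 3 exons). Its heterodimer partners were low as well, with Tlr6 at 0.639 and 0.649 TPM. Tlr7, a sensor of single-stranded RNA on chromosome X, was at 0.248 and 0.213 TPM, and its 5 transcripts in the files included 3 at 0 in both pools. Tlr9, the sensor of unmethylated CpG DNA on chromosome 9, was at 0.0182 and 0.0156 TPM and was exceeded by 76.8% and 77.1% of all genes. None of the other 6 Toll-like receptor genes in the files, Tlr1, Tlr6, Tlr8, Tlr11, Tlr12 and Tlr13, reached 3 TPM in either pool, and Tlr11 and Tlr12 were at 0 in both. Of the endosomal receptors, Tlr3 was thus the only one above the threshold, at 81.5 and 98.3 times the level of Tlr7.

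The lipopolysaccharide receptor requires MD-2, the product of Ly96, which binds the lipid and completes the TLR4 complex, and CD14, which delivers the lipid to it. Ly96, with 5 exons on the plus strand of chromosome 1 (16688433 to 16709611), measured 19.6 TPM in the alum pool and 20.7 TPM in the KLH pool. Tlr3 was slightly higher in each pool, at 20.2 and 20.9 TPM, and without replicates it is unknown whether this order would hold again. Ly96 stood at 2.73 and 2.84 times the level of Tlr4. Cd14 was lower, at 3.93 and 3.79 TPM, and Tlr4 was 1.83 and 1.92 times as abundant. All 3 parts of the lipopolysaccharide receptor were therefore above 3 TPM in both pools, Cd14 by a small margin, with the secreted co-receptor the highest of them. It cannot be told from pooled preparations whether the same cells hold all 3. Ly96 transcripts are short, at 632 bases for the main one, and short transcripts depend most on the fragment lengths assumed in the quantification.

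Ly96 was the only one of the 6 detected genes with more than 1 transcript in the files, and the sequences that separate them are shown because the split between them was not the same in the pools. The full-length transcript NM_016923 was at 19.1 and 19.4 TPM, and NM_001159711 was at 0.505 and 1.30 TPM, or 2.57% and 6.29% of the gene. NM_001159711 was thus below 3 TPM in both pools, with an unknown number of reads, and the difference in the split was not tested. Their coding sequences in GENCODE M21 differ by a single segment of 54 bases, which is 18 codons and keeps the reading frame. The segment is the beginning of exon 3 of 5 of NM_016923, at chr1:16700795-16700848 on the plus strand of GRCm38. In the sequences, read from GENCODE M21 transcripts, capitals mark the segment and lower case the 30 coding bases on each side.
NM_016923: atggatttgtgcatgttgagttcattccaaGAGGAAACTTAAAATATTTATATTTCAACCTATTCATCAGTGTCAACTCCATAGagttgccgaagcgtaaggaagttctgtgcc
NM_001159711: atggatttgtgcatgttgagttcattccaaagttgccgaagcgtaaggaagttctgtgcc
The matched GENCODE transcripts also differ outside the coding sequence, with 632 bases in all for NM_016923 and 429 for NM_001159711. Reads that fit both were shared out by the authors' quantification, so the sum over both transcripts is the safer value.

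The adaptors differed from each other by more than an order of magnitude. Myd88, with 6 exons on the minus strand of chromosome 9 (119335934 to 119340041), measured 9.96 TPM in the alum pool and 8.20 TPM in the KLH pool. Ticam1, with 2 exons on the minus strand of chromosome 17 (56269319 to 56276786), measured 0.337 and 0.308 TPM, below the threshold in both. Myd88 was 29.5 and 26.6 times as abundant as Ticam1. Tlr3, the receptor that depends on TRIF, was 59.996 and 67.8 times as abundant as Ticam1. The most abundant receptor of the list thus stood beside an adaptor that 64.1% and 64.3% of all genes exceeded. Pooled preparations do not show whether the transcripts of Tlr3 and Ticam1 lie in the same cells.

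The genes around the receptors were read from lists of the pathway. Of 11 receptor partners and chaperones, 5 were above 3 TPM in both pools, near the 46.9% and 46.3% of all genes in the alum and KLH pools. Of these partners 0 were 2-fold apart, beside 1.64% of all genes above 3 TPM in at least 1 pool. Hsp90b1, the chaperone that folds most Toll-like receptors, was at 661.6 and 651.3 TPM. Ly86, which encodes MD-1, a relative of MD-2, was at 423.7 and 374.4 TPM. The receptor that MD-1 accompanies, encoded by Cd180, was at 1.63 and 1.35 TPM, so that Ly86 was 259.8 and 276.8 times as abundant. Tirap, the bridging adaptor between TLR2 or TLR4 and MyD88, was at 20.0 and 20.8 TPM, and Cnpy4, a chaperone relative, at 11.1 and 10.2 TPM. In contrast, Ticam2, the bridging adaptor between TLR4 and TRIF, was at 0.290 and 0.199 TPM. Unc93b1, which carries the endosomal receptors including TLR3 to their compartment, was at 0.426 and 0.280 TPM. Cd180, Ticam2 and Unc93b1 were singled out after their values had been seen.

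Downstream of the adaptors most listed genes were above 3 TPM, where 46.9% of all genes were in the alum pool and 46.3% in the KLH pool. Of 13 genes of proximal signalling, 11 were above 3 TPM in both pools, led by Ube2n, the ubiquitin-conjugating enzyme that works with TRAF6, at 392.3 and 415.3 TPM. Peli1, a ubiquitin ligase, was at 65.8 and 64.6 TPM, and Tab3 and Map3k7, parts of the TAK1 kinase complex, were at 54.3 and 56.4 TPM and at 49.8 and 47.8 TPM. The 2 genes below the threshold were Irak4, the first kinase recruited by MyD88, at 1.09 and 1.34 TPM, and Tab1, at 0.368 and 0.390 TPM. Of 13 kinases and transcription factors, 9 were above the threshold in the alum pool and 8 in the KLH pool. Tbk1, the kinase that acts below TRIF, was the highest at 96.7 and 93.1 TPM, followed by the IκB kinase genes Chuk, at 81.5 and 85.8 TPM, and Ikbkg, at 37.2 and 40.5 TPM, and by Nfkb1 at 15.6 and 13.8 TPM. Irf3, the transcription factor that TBK1 activates, was the gene that crossed the threshold, at 3.42 and 2.09 TPM, and was named after this was seen. Negative regulators of the pathway were above 3 TPM in 10 of 12 cases in both pools, with Tollip at 142.6 and 136.8 TPM, Tank at 62.8 and 64.3 TPM, Cyld at 50.7 and 54.1 TPM and Otud7b at 28.8 and 28.3 TPM. None of the genes in these lists was 2-fold apart between the pools. Over all 11648 genes above 3 TPM in at least 1 pool the share was 1.64%, so none in lists this short is near that share.

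**Figure D2:**
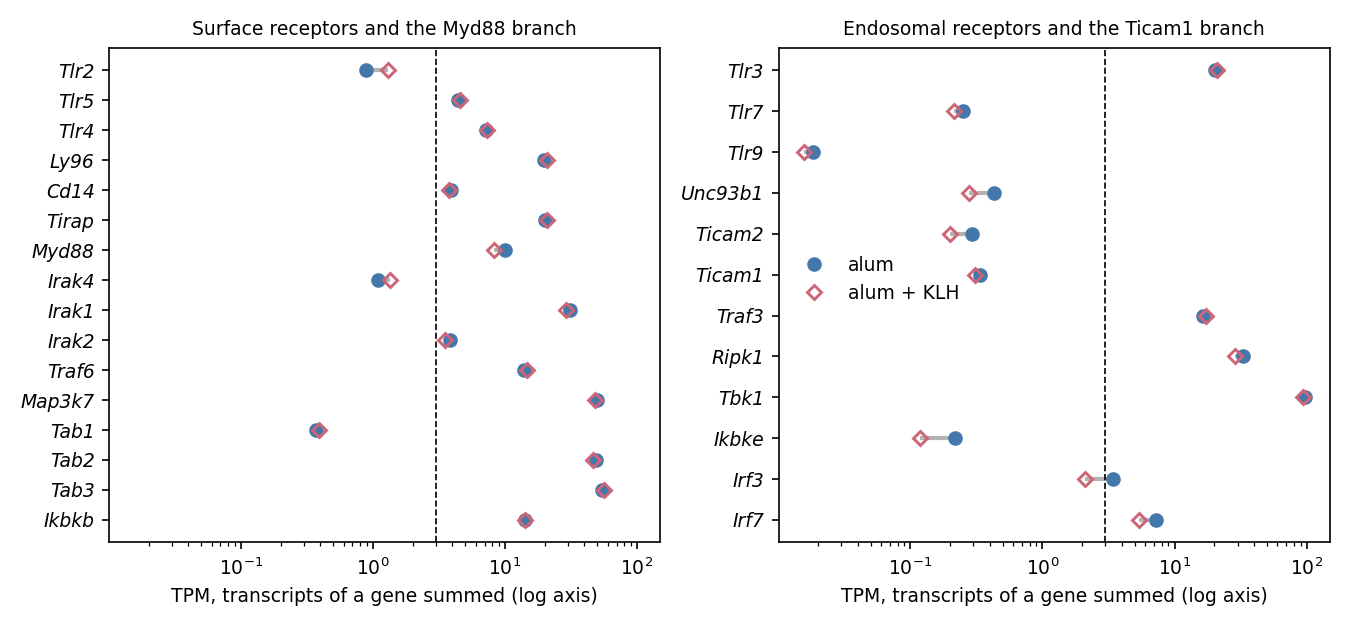
Levels in TPM on log axes of surface receptors with genes of the Myd88 branch (left) and of endosomal receptors with genes of the Ticam1 branch (right), with filled circles for alum and open diamonds for alum + KLH and a dashed line at 3 TPM. Tirap and Myd88 lie right of the line, whereas Ticam1, Ticam2 and Unc93b1 lie left of it beside Tlr3 at 20.2 and 20.9 TPM.

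The comparison of the pools asked how the same genes stood with and without the antigen. The measure was the log2 ratio of KLH to alum after 1 TPM had been added to each level, which understates differences of low genes. Of the 6 members above 3 TPM in at least 1 pool, 0 were 2-fold apart, and over all 11648 genes above this level 1.64% were (0.695% higher and 0.944% lower with KLH). The 4 members that did not pass this filter were not 2-fold apart on this scale either, where 0.905% of all 24411 genes taken without a filter were. All 4 were below 1 TPM in the alum pool, so with 1 TPM added they could not come out 2-fold lower, even at 0 TPM with KLH. For these 4 the count therefore says nothing about a decrease. The median log2 ratio of the 6 members above 3 TPM was 0.03, beside -0.02 over the 11648 genes above this level. Each ratio is given with a neighbour SD, the spread of ratios among the 500 genes nearest to it in level, as a measure of how far comparable genes were apart in these libraries and not as a test.

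The ratio of Tlr4 was 0.02 beside a neighbour SD of 0.52, and that of Tlr3 was 0.05 beside 0.17. Tlr5 was at 0.04 beside 0.32. Ly96 was at 0.07 beside 0.18, and Cd14 at -0.04 beside 0.48. Each of these 5 ratios was smaller than its neighbour SD, and the central 90% of neighbours ran from -0.41 to 0.25 for Tlr4 and from -0.36 to 0.30 for Cd14. Myd88 had the lowest ratio, -0.25, which was as large as its neighbour SD of 0.25 and inside the range from -0.39 to 0.21 that held the central 90% of its neighbours. The highest ratio was that of Tlr2, 0.28 beside an SD of 0.41, from levels below 3 TPM. With 1 library of pooled mice per group, a difference of this size cannot be told apart from variation between mice or preparations. In pooled tissue, fewer cells of a type and less RNA per cell also cannot be told apart.

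**Figure D3:**
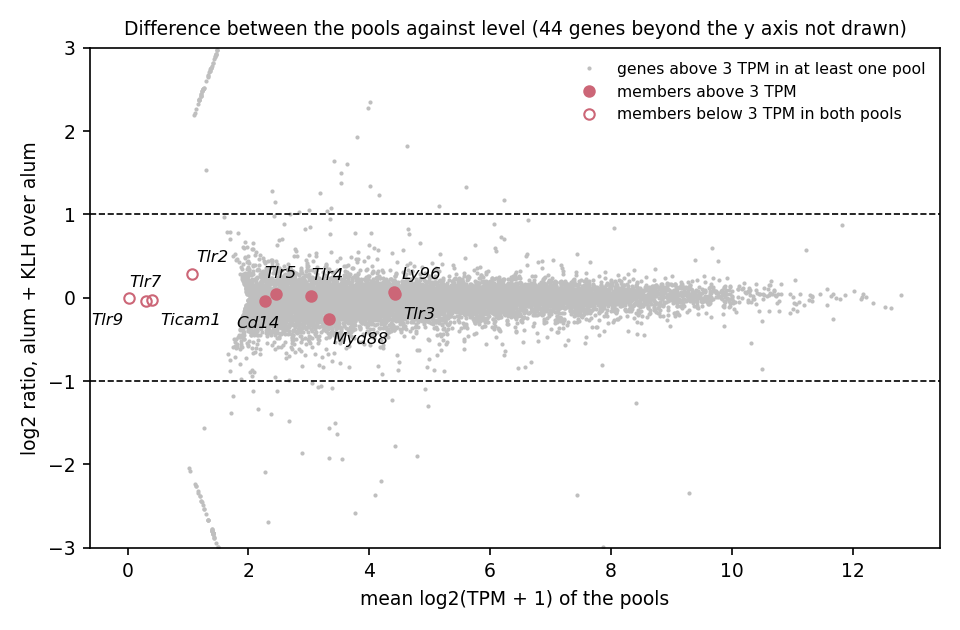
Log2 ratio of alum + KLH over alum (y axis) against the mean log2(TPM + 1) of the pools (x axis), with grey points for genes above 3 TPM in at least 1 pool and filled or open red circles for members above or below 3 TPM. No member reaches the dashed lines at 2-fold, and the largest distances from 0 are those of Tlr2 (0.28) and Myd88 (-0.25).

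Levels in both libraries moved with base composition, which touches several of these values. Over 20235 coding genes matched to a GENCODE transcript, 45.9% of genes in the lowest decile of GC content were above 3 TPM in the alum pool, 62.7% in the fourth decile and 34.2% in the highest. Among genes above 3 TPM, the median level was 47.8 TPM in the lowest decile and 8.60 TPM in the highest in the alum pool, and 49.7 and 7.39 TPM in the KLH pool. Tlr3, Tlr4, Ly96 and Tlr7 lay in the lowest decile, with 38.9% to 40.7% GC. Tlr2 and Tlr5 lay in the sixth decile, with 49.3% and 49.4%, and Cd14 and Myd88 in the eighth, with 52.5% and 53.6%. Ticam1 and Tlr9 lay in the ninth decile, with 56.4% and 56.2%. The first 90 coding bases of the most abundant receptor and its adaptor, from GENCODE M21 on GRCm38, are shown with G and C in capitals to make this contrast visible.
Tlr3: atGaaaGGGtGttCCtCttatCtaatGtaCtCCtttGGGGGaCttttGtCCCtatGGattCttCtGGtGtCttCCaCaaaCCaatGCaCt
Ticam1: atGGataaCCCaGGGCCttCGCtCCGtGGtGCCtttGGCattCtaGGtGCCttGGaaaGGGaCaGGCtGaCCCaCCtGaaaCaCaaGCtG
In these stretches GC made up 43.3% of Tlr3 and 56.7% of Ticam1, close to the 42.1% and 57.0% of their whole coding sequences. Within its own GC decile, Ticam1 was exceeded by 71.2% of genes in the alum pool and 71.8% in the KLH pool, whereas Tlr3 was exceeded by 32.9% and 32.7%. Tlr7 has a GC content close to that of Tlr3 and was exceeded by 55.8% and 56.9% of the genes of its decile. The part of base composition in these levels was not tested.

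The ratio between the pools moved with GC content as well. Its median ran from 0.07 in the lowest decile to -0.19 in the highest. In the eighth decile, which holds Myd88, the median was -0.07. Measured from the median of its decile, the ratio of Myd88 was -0.18, and those of Tlr3, Tlr4 and Ly96 were -0.03, -0.06 and 0.00. Tlr2 was at 0.31 on this scale. Of the 6 members above 3 TPM, 0 were 2-fold apart in this form, which was added after the data had been seen.

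**Figure D4:**
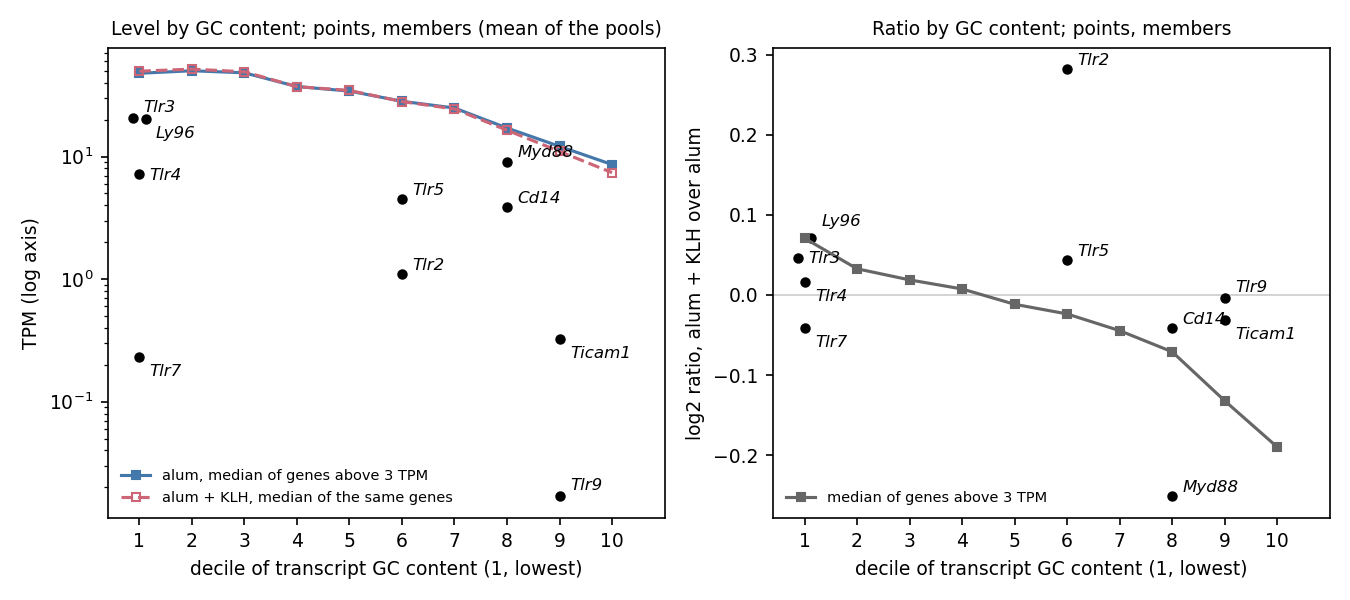
Left, TPM on a log axis against the decile of transcript GC content, with lines for the median of coding genes above 3 TPM in each pool and points for the mean of each member over the pools. Right, the log2 ratio of alum + KLH over alum against the same deciles, with a line for the median of genes above 3 TPM and points for members. The medians are lower at high GC than at low GC, with 47.8 TPM in the lowest and 8.60 TPM in the highest decile of the alum pool and log2 ratios of 0.07 and -0.19.

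Sequence shared with other genes was small for the detected members. Of the 31-base stretches of each main transcript, 0% were found in other genes for Tlr4, Tlr5 and Cd14, 1.99% for Tlr3 and 2.82% for Ly96. Exons of Tlr3 overlap a gene model named Gm45542 on the opposite strand. Myd88 had the largest share, 10.1%, and its exons overlap those of Acaa1a, a peroxisomal thiolase gene on the opposite strand. Acaa1a was at 2.61 and 1.66 TPM. The libraries were made with a stranded kit, but whether the quantification used the strand is not given in the sources used here, so reads of the overlap cannot be assigned with certainty.

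Toll-like receptors and CD14 are also genes of macrophages, so markers of other cells were read in the same libraries. All 8 neuronal markers were above 3 TPM in both pools. Beside this and the counts that follow, 46.9% of all genes were above 3 TPM in the alum pool and 46.3% in the KLH pool. Of 16 markers of macrophages and other myeloid cells, 1 was above 3 TPM, Lyz2 at 3.90 and 3.86 TPM, which is close to the level of Cd14 (chromosome 18, 36725067 to 36726798, minus strand, 2 exons). The list summed to 13.0 TPM in the alum pool and 12.4 TPM in the KLH pool. After Lyz2 the highest were Cx3cr1 at 2.08 and 1.66 TPM, Mrc1 at 1.29 and 1.35 TPM and Cd68 at 0.983 and 1.63 TPM. Next came Itgam at 1.27 and 1.24 TPM and Aif1 at 1.15 and 0.496 TPM. Lower in the list, Ptprc, the pan-leukocyte gene, was at 0.438 and 0.411 TPM, Csf1r at 0.113 and 0.167 TPM, and Trem2 at 0 in both pools. The genes named after Lyz2 were picked after their values had been seen. Csf1r and Trem2 have a GC content of 53.9% and 57.5%, where median levels in both libraries were lower than at low GC. Ptprc and Mrc1, also below 3 TPM, have a lower GC content of 41.4% and 43.4%. The part of GC content in the marker levels was not tested. The 5 neutrophil markers in the files summed to 46.9 TPM in the alum pool and 5.72 TPM in the KLH pool, most of it from S100a8, and were the marker list furthest apart between the pools. None of 4 B cell or 4 T cell markers reached 3 TPM. Of 4 mast cell markers, 1 was above 3 TPM in both pools, Kit at 58.1 and 56.2 TPM. The rest of that list was below it, with Cpa3 at 2.07 and 1.86 TPM, Mcpt4 at 0.638 and 0.122 TPM and Tpsb2 at 0 in both. Also above 3 TPM in both pools were 1 of 5 endothelial markers (Cdh5, at 3.79 and 3.15 TPM) and 2 of 5 fibroblast markers. The latter were Dcn, at 63.8 and 62.6 TPM, and Lum, at 11.2 and 13.2 TPM. Schwann cell and satellite glia markers were plentiful, with 5 of 7 and 5 of 5 above 3 TPM and sums of 2171 and 2131 TPM and of 1467 and 1352 TPM, and the part of any of these cells in the levels of the receptors was not tested.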

How the data were processed

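RNA-seq of DRG neuron preparations was analysed from 2 libraries, alum-injected and alum + KLH-immunized, each from 10 pooled mice. The authors prepared stranded mRNA libraries, demultiplexed reads with bcl2fastq, trimmed them with cutadapt and quantified them with kallisto against the annotated mm10 transcriptome (versions not given in the sources used here). The deposited values are TPM for 35034 RefSeq transcripts. Both columns sum to 1000000. The study's methods state at least 60 M reads per sample, but the reads behind each value, and thus its counting error, are unknown.

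TPM was summed per symbol, compared as log2((TPM + 1) ratio), and set beside the 500 genes nearest by average log2 level. No test was made, as each group has 1 library. GC content and positions came from GENCODE M21 (GRCm38, the assembly of mm10), to which 95.0% of transcripts were matched through RefSeq identifiers. GC deciles were set on 10674 coding genes above 3 TPM, using the highest transcript of each gene. The genes named are the members, the 4 highest genes of each pathway list, list genes 2-fold apart, and others where stated. Members and lists were chosen with earlier results of these data known. The calculations were made in Python 3.11.15 with pandas 2.3.3 and numpy 2.4.6. The 2-fold calls, the GC trend and the neighbour SD were tried on simulated data, with changes only in genes above 10 TPM. Changes in lower genes and the other steps were not tried in this way. Alternatives were pseudocounts, thresholds, rescaling, the highest transcript, removal of small RNA rows and, added after seeing the data, centring on GC deciles.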

Additional observations from a re-analysis of the deposited data

How the results depend on the processing

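Each of the 10 log2 ratios was recomputed under 7 alternatives, and 69 of the 70 values moved by less than the neighbour SD. The exception was Tlr9, whose ratio went from -0.004 to 0.13 when centred on its GC decile, at a level where the added 1 TPM leaves the ratio almost nothing to move with. For members with 1 transcript in the files, use of the highest transcript could not change the ratio. Rescaling by the median ratio or by the housekeeping gene Hprt applied 1 constant to all genes (0.987 or 1.06). Neither constant could move a ratio of these members by its neighbour SD. Removal of small RNA rows moved the ratio of Tlr3 only from 0.0457 to 0.0492. Much of the 69 was therefore fixed in advance, and the count says little about robustness. Across the alternatives Myd88 ranged from -0.33 to -0.18, Tlr2 from 0.23 to 0.50, Tlr4 from -0.06 to 0.03, Tlr3 from -0.04 to 0.06 and Ly96 from -0.01 to 0.09, and the last 3 took either sign, as did Tlr5 (-0.03 to 0.07), Cd14 (-0.11 to 0.03) and Ticam1 (-0.10 to 0.10). The count of members 2-fold apart was 0 under all 7. With a threshold of 1 TPM, 6 members were detected in the alum pool and 7 in the KLH pool, where Tlr2 crossed it, and with 10 TPM, 2 members were detected in the alum pool and 2 in the KLH pool. The share of genes 2-fold apart was 0.905% without a filter and 0.872% among genes above 10 TPM. No paired analysis was possible because each group holds 1 library. The files hold no read counts, so values under 1 TPM, such as those of Ticam1, Tlr7 and Tlr9, carry a counting error that cannot be computed.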

Other observations

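Receptors of the interleukin-1 family also signal through MyD88. Of 5 such genes, Il1r1 was at 19.3 TPM in both pools, close to the level of Tlr3, and Il1rap, its co-receptor, was lower at 14.87 and 14.02 TPM, while Il18r1 (0.794 and 0.849 TPM) and Il1rl1 (0.745 and 0.714 TPM) were below 3 TPM.

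Genes that Toll-like receptors can induce ranged widely in level. Of 14 such genes, 7 were above 3 TPM in both pools, a share near the 46.9% and 46.3% of all genes in the alum and KLH pools. Of these genes 0 were 2-fold apart, beside 1.64% of all genes above 3 TPM in at least 1 pool. Cxcl10, an interferon-inducible chemokine, was at 291.4 TPM in the alum pool and 335.8 TPM in the KLH pool, and Ccl2, a monocyte chemokine, at 247.4 and 285.5 TPM. Ifit1 was at 200.6 and 184.8 TPM and Il6 at 107.9 and 126.3 TPM. The lowest included Tnf at 0.247 and 0.284 TPM and Nos2 at 0.0157 and 0.0135 TPM, named after their values had been seen. The median log2 ratio of the 7 genes above 3 TPM was -0.005.

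Among 12 genes for proteins described as endogenous ligands, 10 were above 3 TPM in the alum pool and 9 in the KLH pool. The shares over all genes were 46.9% and 46.3%. Hspa8 was at 4511 and 4459 TPM, Hspd1 at 670.6 and 641.5 TPM, Hmgb1 at 347.2 and 358.7 TPM, and Dcn at 63.8 and 62.6 TPM. S100a8 and S100a9, which encode the subunits of calprotectin, a TLR4 ligand of neutrophils, were the only 2 of the 86 pathway genes 2-fold apart. Of the 86, 54 were above 3 TPM in the alum pool and 52 in the KLH pool. Over all 11648 genes above 3 TPM in at least 1 pool, 1.64% were 2-fold apart. S100a8 was at 32.3 and 4.59 TPM, a log2 ratio of -2.58, and S100a9 at 11.7 and 0.962 TPM, a log2 ratio of -2.69. A further neutrophil marker, Ngp, was at 2.72 and 0.153 TPM, and Mpo and Elane were below 0.2 TPM in both pools. Whether these values reflect neutrophils in the alum-injected preparation was not tested.

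By the distance of log2(TPM + 1) over the 2 pools, the genes closest to Tlr4 were Dnajb12 (0.011), Cd209c (0.014) and Ogfr (0.017), which describes a shared level and nothing more.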
